A study of Mus musculus with 10 samples.

Results

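The clustered histone genes are the genes of the Hist1, Hist2, Hist3 and Hist4 loci of the mouse genome, which make the linker histone H1 and the core histones H2A, H2B, H3 and H4. They were taken by name: each row whose Ensembl identifier belongs to a protein-coding gene of GENCODE M21 (GRCm38) with a symbol that begins with Hist1h, Hist2h, Hist3h or Hist4h was a member. This gave 65 genes of the 49671 rows in each table. By class they were 6 H1, 18 H2A, 16 H2B, 12 H3 and 13 H4 genes. Hist1 on chromosome 13 (21715763 to 23934851) held 52 of them, Hist2 on chromosome 3 (96219865 to 96270132) held 10, Hist3 on chromosome 11 held 2 and Hist4 on chromosome 6 held 1. Hist1h2bm and Hist1h2bh match the same pattern and were not analysed here.

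The RNA came from mammary gland cells of mice that were separated by flow cytometry, with 2 libraries for each of 5 populations. Tomato hybrid cells (THC), Tomato basal cells (TBC) and Tomato luminal cells (TLC), named after the red fluorescent reporter, were collected after ablation of luminal cells. Luminal cells (LC) and basal cells (BC) carry no treatment label, and their second library is marked WT. Neither the strain, the promoter that drives the reporter, the means of ablation nor the age of the mice is stated in the labels. They do not tie the 2 libraries of a population to different mice, so each p-value measures only the spread between libraries, which may be technical. Differences between Tomato and other populations combine the ablation, the reporter and the sort, which cannot be told apart.

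Clustered histone genes are transcribed mainly while a cell copies its DNA, when new nucleosomes have to be built on the daughter strands. Core histones H2A, H2B, H3 and H4 form the nucleosome and H1 binds the linker DNA between nucleosomes. Most messages of these genes end not in a poly(A) tail but in a conserved stem-loop, which stem-loop binding protein (Slbp) holds during processing, export and decay. Some members are also known to give polyadenylated RNA outside S phase, among them the human counterparts of Hist1h2bc, Hist2h2be and Hist4h4.

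The histone stem-loop was searched by its name's consensus in the annotated transcripts of GENCODE M21 and lay past the stop codon in 44 of the 65 members, against a match anywhere in a transcript in 85 of 21951 protein-coding genes (0.387%). In 15 of the other members the annotated model ends at or just past the stop codon, so no stem-loop could be found there. The stem-loop had 8 distinct sequences of 16 bases among the members. Shown are the 3 most frequent ones, of which the second was found in H4 genes alone, and that of Hist1h4a, with the 4-base loop in capitals.
Stem-loop of 24 members such as Hist1h1c, Hist1h1e and Hist1h2ad: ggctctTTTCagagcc
Stem-loop of 7 H4 genes such as Hist1h4h and Hist4h4: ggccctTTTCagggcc
Stem-loop of 6 members such as Hist1h3e and Hist1h3f: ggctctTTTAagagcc
Stem-loop of Hist1h4a alone: ggccctTCTCagggcc

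Promoters of 300 bases, from 250 before the start to 50 after it, were found in RefSeq (GRCm38.p6) for 60 of the 65 members. Searched on both strands, TATAAA stood in 35 of the 60 (58.3%), against 13.6% of the 32851 promoters in that table. CCAAT stood in 51 of the 60 (85.0%), against 37.4% of all, and those without it were H4 genes, of which 3 of 12 held it. AAACACA, known as the H1 box, stood in 5 of 6 H1 promoters, against 7.18% of all. ATTTGCAT, the octamer, stood in 7 of 18 H2A and 5 of 14 H2B promoters and in no other member's, against 1.74% of all. None of these motifs contains another, and they can overlap only at their edges. The 4 promoters below belong to the member with the smallest adjusted p in THC against BC, to a linker histone gene that rose in both main comparisons, to Hist1h1e, called in TLC against LC and not in THC against BC, and to Hist1h1c, called in no comparison. Capitals mark each match of the motifs named above, on either strand.
Hist1h2ad promoter, chr13:23574131-23574430, plus strand: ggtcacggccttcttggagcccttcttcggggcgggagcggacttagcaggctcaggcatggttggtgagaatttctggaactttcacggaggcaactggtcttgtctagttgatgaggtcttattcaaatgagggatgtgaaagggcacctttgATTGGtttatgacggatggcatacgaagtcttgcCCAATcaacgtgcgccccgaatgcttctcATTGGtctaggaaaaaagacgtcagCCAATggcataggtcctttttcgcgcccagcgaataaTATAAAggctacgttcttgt
Hist1h1b promoter, chr13:21780576-21780875, minus strand: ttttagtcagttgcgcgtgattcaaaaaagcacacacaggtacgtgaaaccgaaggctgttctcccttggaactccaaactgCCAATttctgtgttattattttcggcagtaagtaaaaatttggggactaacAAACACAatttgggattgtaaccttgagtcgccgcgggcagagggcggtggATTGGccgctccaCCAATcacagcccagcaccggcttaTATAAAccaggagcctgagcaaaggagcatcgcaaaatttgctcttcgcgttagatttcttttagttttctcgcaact
Hist1h1e promoter, chr13:23622509-23622808, minus strand: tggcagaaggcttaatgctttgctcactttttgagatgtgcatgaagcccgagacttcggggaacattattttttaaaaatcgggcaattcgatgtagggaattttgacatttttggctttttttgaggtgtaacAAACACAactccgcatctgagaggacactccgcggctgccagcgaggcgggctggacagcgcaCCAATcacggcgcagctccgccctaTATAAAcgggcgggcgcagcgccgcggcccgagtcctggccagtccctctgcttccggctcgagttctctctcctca
Hist1h1c promoter, chr13:23738557-23738856, plus strand: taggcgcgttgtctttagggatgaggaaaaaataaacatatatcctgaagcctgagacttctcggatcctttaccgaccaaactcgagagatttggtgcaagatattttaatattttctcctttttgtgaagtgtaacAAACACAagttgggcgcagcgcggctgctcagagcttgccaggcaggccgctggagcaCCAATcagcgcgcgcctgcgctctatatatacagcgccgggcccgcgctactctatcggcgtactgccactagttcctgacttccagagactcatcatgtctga

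Counts assigned to genes ran from 2757773 in THC replicate 1 to 13685674 in LC replicate 2. Reads without a unique alignment were 43.0% of the total in THC replicate 1 and 14.6% to 22.4% in the other 9 libraries. Levels are given as CPM, counts scaled to a common library size. Summed levels of 6 basal markers were 4520 and 3754 CPM in THC, 13639 and 10046 in TBC, 1057 and 650 in TLC, 146 and 83.8 in LC, and 7958 and 12096 in BC. Those of 7 luminal markers were 3471 and 2563 CPM in THC, 998 and 685 in TBC, 4736 and 3833 in TLC, 8281 and 6583 in LC, and 1294 and 967 in BC. Every population thus showed the markers of its label, with both sets present in THC. Of the lists of other cell types, all 6 fibroblast markers were detected in THC, where their sum was 837 and 1900 CPM, against 292 and 239 in BC. All 6 immune markers were detected as well, with a sum of 155 and 60.9 CPM in THC and 28 and 9.95 in BC, and the 6 endothelial ones with 424 and 394 CPM in THC and 305 and 66.8 in BC. Between TLC and LC the fibroblast and endothelial sums overlapped and the immune one did not (27.4 and 23.6 CPM in TLC, 18.0 and 17.3 in LC). In TBC and BC the fibroblast sums were 305 and 585 CPM in TBC and 292 and 239 in BC, without overlap. The part of these markers in the results below was not tested.

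Messages of clustered histone genes were most abundant in the hybrid and luminal cells taken after ablation. Together the 65 genes made up 2957 and 2026 CPM in THC replicates 1 and 2, 837 and 2078 in TBC, 3155 and 1722 in TLC, 647 and 876 in LC, and 642 and 923 in BC. As a share of counts this was 0.277% and 0.221% in THC, 0.0788% and 0.214% in TBC, 0.319% and 0.193% in TLC, 0.0613% and 0.0892% in LC, and 0.0608% and 0.0884% in BC. All 4 THC and TLC libraries lay above all 4 LC and BC libraries, whereas TBC was split: its replicate 1 lay below BC replicate 2 and its replicate 2 above TLC replicate 2. TBC replicate 2 was above THC replicate 2 in CPM and below it as a share of counts. The mean of THC was 3.18 times that of BC, the mean of TLC was 3.20 times that of LC, and the mean of TBC was 1.86 times that of BC with overlapping libraries. The titles number the first libraries 44 to 48 and the second 80 to 84, without saying what these sets are. Within the first and second set the ratio was 4.61 and 2.19 for THC to BC, 4.87 and 1.97 for TLC to LC, and 1.3 and 2.25 for TBC to BC. These are sums over members and carry no test. In bulk RNA, more cells in S phase and more histone RNA per cell cannot be told apart.

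**Figure D1:**
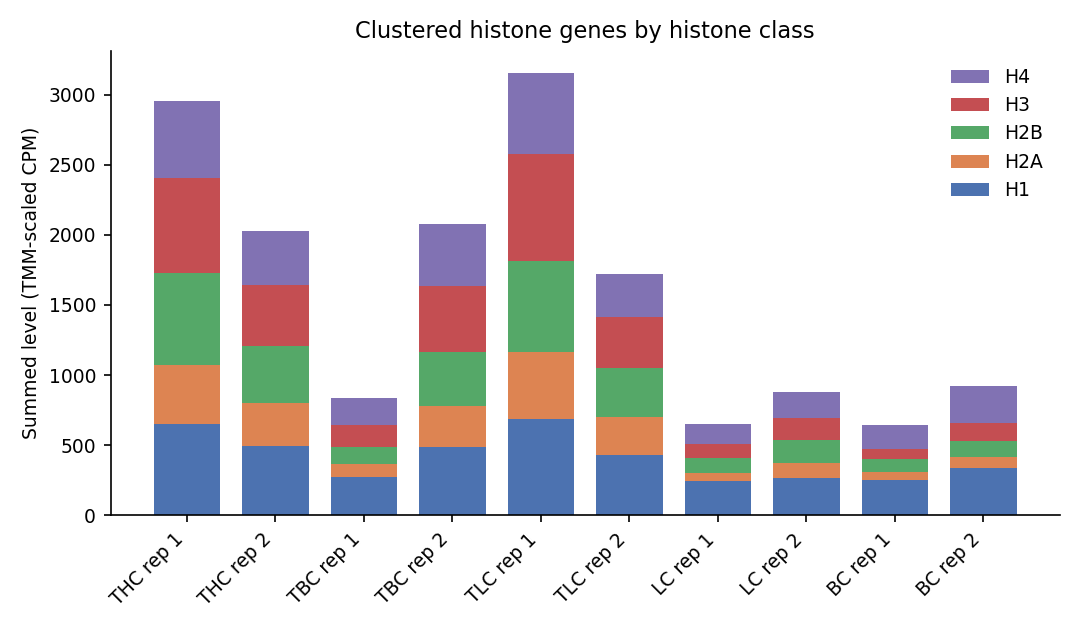
Summed level of the 65 clustered histone genes in each library (TMM-scaled CPM), stacked by histone class, with 2 libraries per population. The bars of THC and TLC reach 1722 to 3155 CPM, those of LC and BC 642 to 923 CPM, and the 2 TBC libraries stand at 837 and 2078 CPM.

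The classes did not share this difference evenly. H2A genes summed to 423 and 305 CPM in THC, 88.7 and 296 in TBC, 474 and 273 in TLC, 55.4 and 102 in LC, and 52.9 and 76.7 in BC. The ratio of means was 5.62 for THC to BC and 4.74 for TLC to LC in this class. H3 genes, with 677 and 434 CPM in THC and 68.0 and 131 in BC, had ratios of 5.57 and 4.45. H2B genes, with 650 and 408 CPM in THC and 97.8 and 112 in BC, had ratios of 5.04 and 3.62. H4 genes had ratios of 2.16 and 2.74, and H1 genes 1.94 and 2.18. As a result H1 made up 22% and 24.5% of all clustered histone counts in THC and 21.8% and 24.8% in TLC, against 37.9% and 30.5% in LC and 39.3% and 36.8% in BC. These shares did not overlap between the Tomato luminal or hybrid libraries and the LC or BC libraries, and TBC held 32.7% and 23.3%.

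Gene by gene, 61 of the 65 members had enough counts to be tested, and each p-value was adjusted over all 19757 genes tested. Of the 61, 55 reached 10 counts in at least 2 of the 4 LC and BC libraries. The other 6 did not and passed through the Tomato libraries (Hist1h2bp, Hist1h2bq, Hist1h2ap, Hist1h2br, Hist1h2ah and Hist1h3g). A gene of the last kind could enter the test only by being higher in the Tomato libraries, so counts are also given over the 55. The filter works on CPM rather than counts, and by CPM Hist1h2an, Hist1h2bk and Hist1h2ag passed through the Tomato libraries too. They stay among the 55 and were called in THC against BC, so counts over the 55 are not free of this selection. The 4 members that were not tested were Hist1h1t, Hist1h2aa, Hist1h2ba and Hist1h2ao. Hist1h1t, Hist1h2aa and Hist1h2ba are genes of the male germ line, and Hist1h2ba had the highest value among them, 1.69 CPM in TBC replicate 2.

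In THC against BC, 26 members were called higher and none lower at an adjusted p under 0.05 in edgeR's quasi-likelihood test, where 5% of all genes tested were called higher and 2.72% lower. Over the 55 members with 10 counts in at least 2 of the 4 LC and BC libraries, 22 were called higher and none lower. Hist1h2an, Hist1h2bk and Hist1h2ag, which by CPM passed through the Tomato libraries, are still among these 22. The median log2 fold change was 2.25 over the 61, also with the 2 members at 0 in BC at their lower bounds, and 2.08 over the 55. Both THC libraries lay above both BC libraries for 54 of all 65 members and below for 1, against 27.9% of the genes tested that lay above. In TLC against LC, 14 members were called higher and none lower, where 4.46% of all genes were called higher and 3.77% lower, and the median log2 fold change was 2.17. Over the 55, 13 were called higher, Hist1h2an still among them, and none lower, with a median of 1.98. Both TLC libraries lay above both LC libraries for 53 of the 65 members and below for 4, against 24.3% of the genes tested that lay above. The count of 26 fell to 2 without BC replicate 1, 1 without BC replicate 2, 3 without THC replicate 1, 7 without THC replicate 2, 17 without TLC replicate 1 and 15 without TLC replicate 2. The count of 14 was 2 without LC replicate 1, 5 without LC replicate 2, 1 without TLC replicate 1, and 30 without either TBC replicate 1 or TBC replicate 2.

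The comparisons of THC with BC and of TLC with LC share no library, but both come from the same fit and its estimate of spread. Called in both were 8 members, 57.1% of the calls in TLC and 30.8% of those in THC: Hist1h1b, Hist1h2ad, Hist1h2af, Hist1h2an, Hist1h2bf, Hist1h2bj, Hist1h3g and Hist2h3b. Of these, Hist1h3g and, by CPM, Hist1h2an passed the filter through the Tomato libraries, so their part of the overlap is selected. The shares without them are not given. Of all genes, 197 were called higher in both, 22.4% of the calls in TLC and 20% of those in THC, and no test was made of the difference in shares. Called in TLC alone were Hist1h1a, Hist1h1e, Hist1h4a, Hist1h4h, Hist2h2ac and Hist2h2bb. In neither comparison were 33 of the 65 members called.

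**Figure D2:**
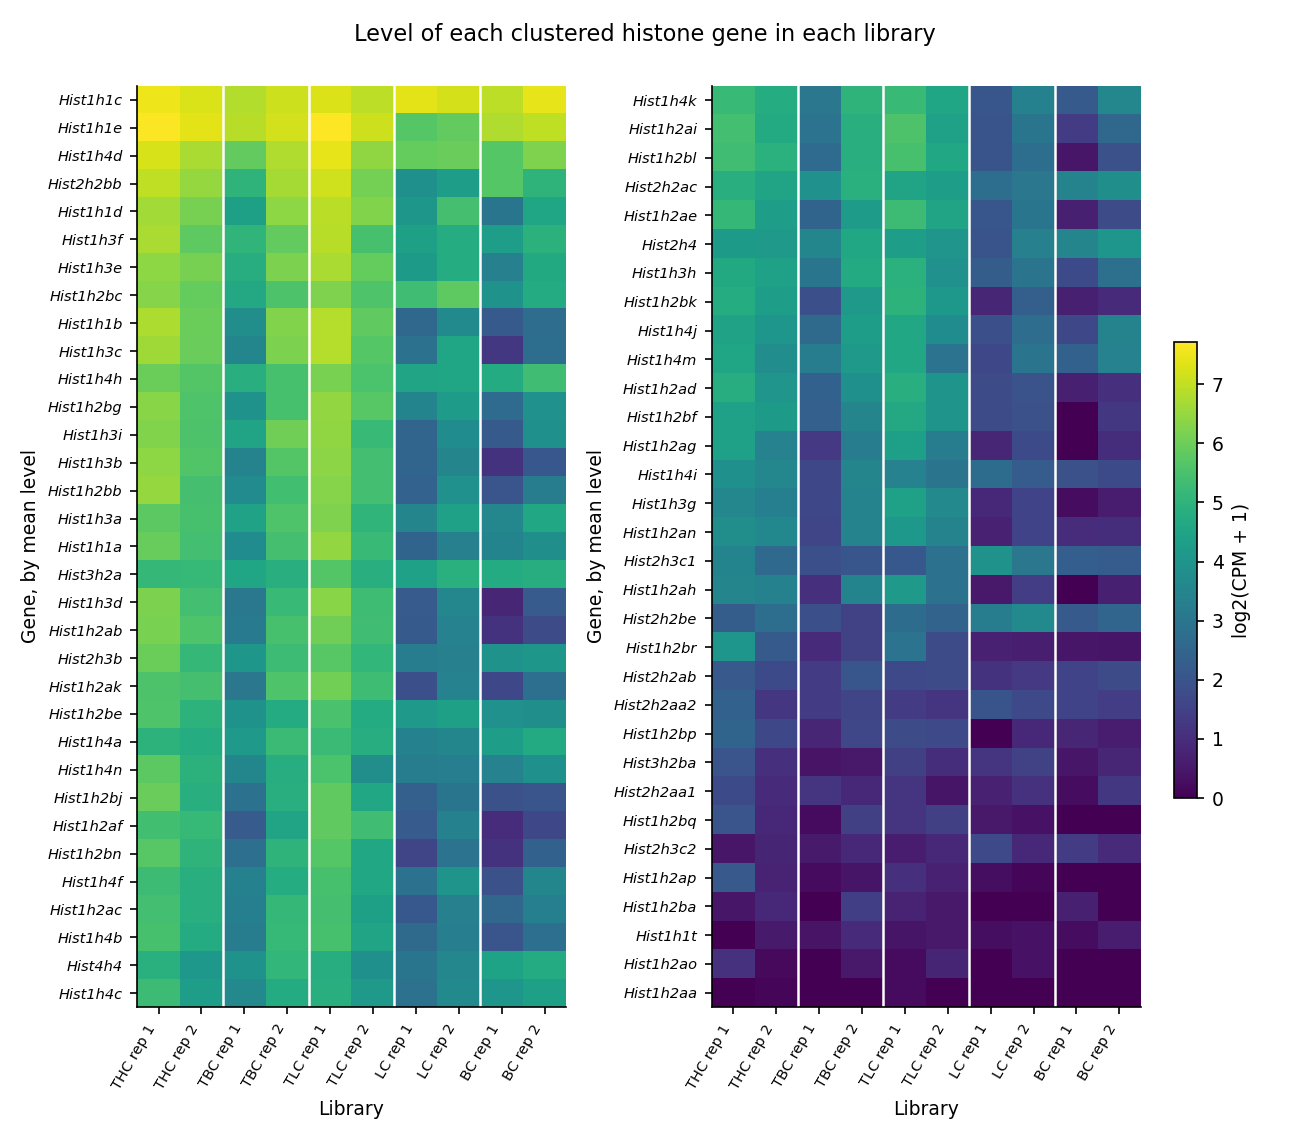
Level of each of the 65 clustered histone genes in each of the 10 libraries, as log2(CPM + 1), with genes ordered by their mean over all libraries and white lines between populations. Hist1h1c, at the top, is bright in every library (111 to 184 CPM), while most rows below it are darkest in LC and BC and TBC replicate 1 is darker than TBC replicate 2.

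Among the linker histone genes, 1 of the 5 tested was called higher in THC against BC and 3 in TLC against LC. Of all genes tested, 5% and 4.46% were called higher in these comparisons. Hist1h1c (ENSMUSG00000036181, chromosome 13, 23738808 to 23740367) had the highest mean CPM of the members, without regard to length, with 184 and 155 CPM in THC, 111 and 138 in TBC, 156 and 123 in TLC, 169 and 146 in LC, and 121 and 172 in BC. The libraries of THC overlapped those of TLC, LC and BC, while both TBC libraries lay below those of THC and LC, and no comparison called it (log2 fold change 0.21 ± 0.24 in THC against BC and -0.18 ± 0.24 in TLC against LC, standard error, adjusted p = 0.64 and 0.74 in edgeR's quasi-likelihood test). Alone it made up 6.81% of the clustered histone counts of THC and 5.73% of those of TLC, against 20.7% in LC and 18.7% in BC.

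Hist1h1b (chromosome 13, 21779883 to 21780625), which makes the H1.5 linker histone, had 107 and 61.7 CPM in THC, 13.1 and 75.6 in TBC, 115 and 55.8 in TLC, 4.99 and 11.7 in LC, and 3.53 and 5.78 in BC. The THC, TLC and TBC libraries all lay above those of LC and BC. It rose by a log2 fold change of 4.11 ± 0.88 in THC against BC (adjusted p = 0.029, edgeR) and of 3.33 ± 0.82 in TLC against LC (adjusted p = 0.045, edgeR). The THC call was lost when any of 7 of the 10 libraries was left out, all but LC replicate 2 and both of TBC (adjusted p from 0.055 to 0.20 there) and the TLC call when any of 8 was, all but those of TBC (0.075 to 0.27), with log2 fold changes of 3.68 to 4.56 and of 2.71 to 4.08 over all 10.

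Hist1h1a, which makes H1.1, had 59.3 and 41.8 CPM in THC, 12.5 and 42.6 in TBC, 88.1 and 35.9 in TLC, 4.55 and 9.33 in LC, and 10.2 and 13.3 in BC. It rose in TLC against LC (3.13 ± 0.65, adjusted p = 0.020, edgeR), where the libraries did not overlap. The call was lost without LC replicate 1, LC replicate 2, TLC replicate 1 or BC replicate 2 (adjusted p from 0.050 to 0.14). In THC against BC its log2 fold change of 2.08 ± 0.63 missed the threshold (adjusted p = 0.081, edgeR), although both THC libraries were above both BC libraries. Hist1h1d, for H1.3, had 99.9 and 69.0 CPM in THC and 7.06 and 22.4 in BC, and its 2.46 ± 0.79 was not called either (adjusted p = 0.099, edgeR).

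Hist1h1e (chromosome 13, 23620629 to 23622558) makes H1.4. Its levels were 201 and 168 CPM in THC, 116 and 144 in TBC, 209 and 137 in TLC, 50.4 and 57.1 in LC, and 110 and 126 in BC. LC was lower than every other population without overlap. The gene rose in TLC against LC by 1.68 ± 0.24 (adjusted p = 0.0023, edgeR), the smallest adjusted p of any member there, and was lower in LC than in BC (-1.13 ± 0.24, adjusted p = 0.0051, edgeR). Both calls were kept without each of the 10 libraries in turn, with log2 fold changes of 1.35 to 1.93 and of -1.25 to -1.02. In THC against BC it was not called (0.64 ± 0.24, adjusted p = 0.12, edgeR). The change in TLC minus the change in TBC was 1.54 ± 0.34 (adjusted p = 0.065, edgeR), the smallest adjusted p of this interaction among the members, of which none was called (0.552% of all genes were called higher and 0.359% lower). The exons of Hist1h1e overlap those of Hist1h2be and Gm11398.

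**Figure D3:**
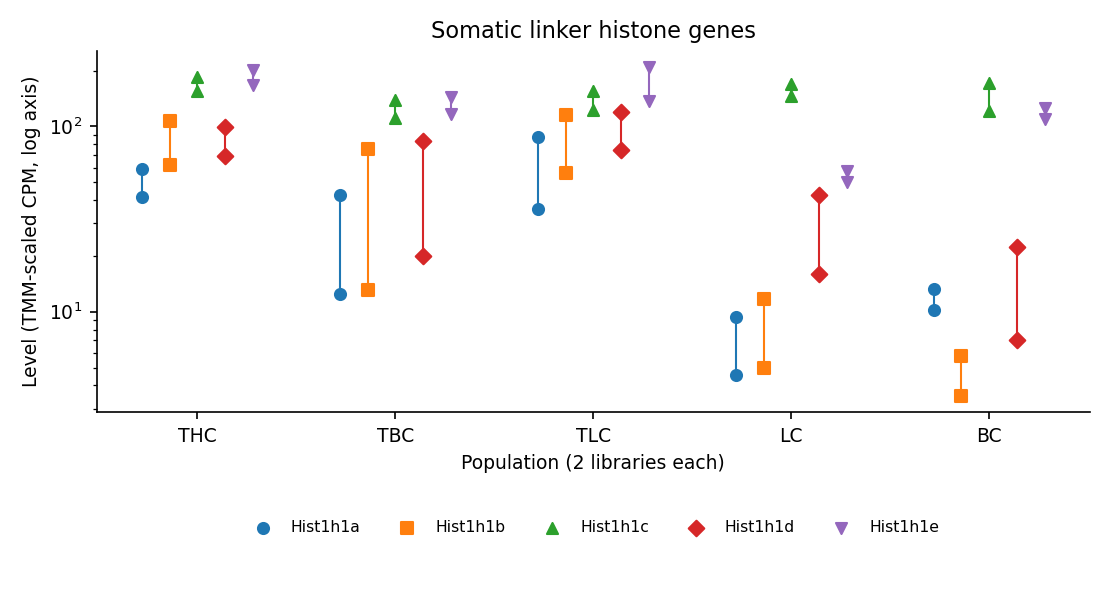
Levels of the 5 somatic linker histone genes (TMM-scaled CPM, log axis), with 2 points per gene and population, 1 for each library, joined by a line. Hist1h1c stays between 111 and 184 CPM in all populations, Hist1h1e is lowest in LC (50.4 and 57.1 CPM), and Hist1h1a and Hist1h1b lie under 14 CPM in LC and BC and above 35 CPM in THC and TLC.

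Among core histones, the H2A and H2B genes gave the most calls in hybrid cells. Called higher in THC than in BC were 9 of 16 tested H2A genes and 10 of 15 tested H2B genes, against 5% of all genes tested. Over the 55 members these counts were 7 of 14 and 9 of 12, still with Hist1h2an, Hist1h2ag and Hist1h2bk among them. Many H2A and H2B genes are arranged as head-to-head pairs that share a promoter region: 12 pairs of 1 H2A and 1 H2B gene had starts 176 to 306 bases apart on opposite strands. Of the 10 pairs with both members tested, both were called higher in THC against BC in 6 and 1 of them in 3. Without the pairs that hold a member outside the 55, both were called in 4 of 7 and 1 of them in 2. The pair of Hist1h2ag and Hist1h2bj is still counted there, although by CPM Hist1h2ag passed the filter through the Tomato libraries. Pairs are neighbours that may share reads by sequence with other members, so their members are not independent.

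The pair with the smallest adjusted p was Hist1h2ad and Hist1h2bf, whose starts lie 185 bases apart and whose shared region is the first promoter printed above. Hist1h2ad had 27.1 and 15.4 CPM in THC, 4.26 and 13.8 in TBC, 28.2 and 15.0 in TLC, 2.49 and 2.94 in LC, and 0.588 and 1.11 in BC. Hist1h2bf had 20.5 and 17.5 CPM in THC, 4.10 and 10.4 in TBC, 24.2 and 14.9 in TLC, 2.49 and 2.80 in LC, and 0 and 1.36 in BC. For both genes every Tomato library lay above every LC and BC library. Hist1h2ad rose by 4.49 ± 0.66 in THC against BC (adjusted p = 0.0049, edgeR) and by 2.97 ± 0.57 in TLC against LC (adjusted p = 0.0096). Without BC replicate 2 the first of these calls was lost (adjusted p = 0.051), and the second was lost without LC replicate 1, LC replicate 2 or TLC replicate 1 (0.054 to 0.075). Hist1h2bf rose by 4.45 ± 0.75 in THC against BC (adjusted p = 0.0082, edgeR), a call kept without each library in turn (adjusted p up to 0.039). Without BC replicate 2 the BC side was a single library at 0, so its fitted fold change there is not a measure of size.

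Other H2A genes were also called. Hist1h2ab had 70.9 and 47.6 CPM in THC, 8.21 and 43.2 in TBC, 65.4 and 39.5 in TLC, 3.58 and 9.76 in LC, and 1.18 and 2.38 in BC, so that TBC replicate 1 stood among the LC libraries. It rose by 4.93 ± 0.89 in THC against BC (adjusted p = 0.016, edgeR), the largest fold change of the members with counts in BC. Hist1h2af, with 40.7 and 34.7 CPM in THC and 0.98 and 2.21 in BC, rose by 4.43 ± 0.84 (adjusted p = 0.018, edgeR). Both calls were lost without any of the 4 libraries of THC and BC, with adjusted p from 0.056 to 0.14. Hist1h2an, which by CPM passed the filter through the Tomato libraries, had 13.2 and 11.1 CPM in THC and 0.98 and 1.02 in BC. It rose by 3.57 ± 0.75 there (adjusted p = 0.019, edgeR), and in TLC against LC by 3.25 ± 0.70 (adjusted p = 0.017). The first call was lost without any of the 4 THC and BC libraries (0.067 to 0.15) and the second without LC replicate 1 or TLC replicate 1 (0.076 to 0.10).

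Hist1h2bq and Hist1h2ap were at 0 counts in both BC libraries. With 20 counts over both THC libraries, Hist1h2bq was at least 7.2-fold higher in THC than in BC, and Hist1h2ap, with 19 counts, at least 6.84-fold higher, each against a floor of 3 counts over both BC libraries, which covers counting error only. Their fitted fold changes are therefore not given. Both genes passed the filter through the Tomato libraries, so an excess over BC was selected and these bounds are a description only. Hist1h2bq was not called in THC against BC (adjusted p = 0.055, edgeR), and Hist1h2ap was (0.041). Of their 50-base stretches, 2.68% in Hist1h2bq and 6.93% in Hist1h2ap were their own.

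H3 genes gave 4 calls of 12 tested in THC against BC and 2 in TLC against LC, 1 of each being Hist1h3g. The shares of all genes tested that were called higher were 5% and 4.46%. Hist1h3g had 10.8 and 9.11 CPM in THC, 2.21 and 9.97 in TBC, 20.5 and 11.4 in TLC, 0.867 and 1.94 in LC, and 0.196 and 0.510 in BC. Every Tomato library lay above every LC and BC library. It was tested only because of its Tomato libraries, so its values are a description and its calls are not used as support. Its call in THC against BC was lost without BC replicate 1 or BC replicate 2, and that in TLC against LC without LC replicate 1 or TLC replicate 1. Hist1h3b, with 83.3 and 48.4 CPM in THC and 1.18 and 3.23 in BC, rose by 4.75 ± 0.90 (adjusted p = 0.019, edgeR). That call was lost without any of the 4 THC and BC libraries (0.060 to 0.14). Hist2h3b of the Hist2 locus had 51.2 and 33.4 CPM in TLC and 8.45 and 9.19 in LC and rose by 2.25 ± 0.42 (adjusted p = 0.0091, edgeR), a call lost without TLC replicate 1 (0.072) or LC replicate 2 (0.052).

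H4 genes gave the fewest calls of the core histones in THC against BC, where 5% of all genes tested were called higher. In THC against BC 2 of 13 were called, Hist1h4b (2.82 ± 0.69, adjusted p = 0.040, edgeR) and Hist1h4i (2.28 ± 0.61, adjusted p = 0.046), both named after their values were seen. The Hist1h4b call was lost when any of 8 of the 10 libraries was left out, all but those of TBC (adjusted p from 0.053 to 0.19, edgeR), and the Hist1h4i call without any library of THC, TLC or BC (0.064 to 0.23). In TLC against LC 2 of 13 were called, Hist1h4a and Hist1h4h, where 4.46% of all genes tested were called higher. Both TLC libraries lay above both LC libraries for 12 of 13, against 24.3% of the genes tested. Hist1h4a, the gene whose loop differs from the other H4 stem-loops printed above, had 31.0 and 26.3 CPM in THC, 17.2 and 37.6 in TBC, 37.0 and 27.1 in TLC, 9.43 and 10.6 in LC, and 19.0 and 25.2 in BC. It rose in TLC against LC (1.67 ± 0.36, adjusted p = 0.015, edgeR) and was lower in LC than in BC (-1.14 ± 0.35, adjusted p = 0.035). The call in TLC was lost without LC replicate 1, LC replicate 2 or TLC replicate 1 (0.061 to 0.11), as was that of Hist1h4h (0.073 to 0.16), and that in LC without either LC library or BC replicate 2 (0.090 to 0.20). Hist1h4d had 152 and 105 CPM in THC, 57.0 and 111 in TBC, 173 and 85.3 in TLC, 58.8 and 61.0 in LC, and 49.8 and 73.6 in BC, and was not called (1.04 ± 0.40 in THC against BC, adjusted p = 0.14, edgeR).

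Some members were called in other comparisons. Hist2h2be, an H2B gene, had 3.87 and 5.87 CPM in THC, 2.68 and 1.83 in TBC, 5.61 and 4.46 in TLC, 8.56 and 11.8 in LC, and 3.53 and 4.68 in BC. Its 2 LC libraries were the highest of all 10, and it was called higher in LC than in BC (1.30 ± 0.40, adjusted p = 0.035, edgeR) and not in TLC against LC (-1.03 ± 0.40, adjusted p = 0.14). The H3 gene Hist2h3c1, with 14.7 and 7.39 CPM in LC and 3.92 and 3.74 in BC, was also called higher in LC (1.52 ± 0.49, adjusted p = 0.041, edgeR), against 3.33 and 6.46 CPM in TLC. Both TLC libraries lay below both LC libraries for 4 members, all of them of the Hist2 locus, against 24.9% of the genes tested that lay below. The calls in LC were lost for Hist2h2be without any library of LC, TBC or BC (adjusted p from 0.051 to 0.22) and for Hist2h3c1 without any library of TBC or BC or LC replicate 1 (0.053 to 0.29).

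Hist1h2bc, the partner of Hist1h2ac in a head-to-head pair 251 bases apart, had 79.0 and 58.5 CPM in THC, 24.2 and 45.9 in TBC, 74.2 and 46.8 in TLC, 39.8 and 54.5 in LC, and 14.3 and 26.1 in BC. It rose in THC against BC (1.74 ± 0.39, adjusted p = 0.026, edgeR) and was higher in LC than in BC (1.2 ± 0.39, adjusted p = 0.044), and in TLC against LC its libraries overlapped (0.35 ± 0.38, adjusted p = 0.66). The THC call was lost without any of the 4 THC and BC libraries (0.057 to 0.13), and the LC call without either library of THC or LC, TLC replicate 1 or BC replicate 1 (0.050 to 0.24). Hist3h2a, with 34.1 and 35.2 CPM in THC, 49.1 and 28 in TLC, 20.5 and 28.6 in LC and 25.9 and 27.0 in BC, was not called in either comparison (adjusted p = 0.45 and 0.22, edgeR). Hist4h4 had 29.1 and 16.1 CPM in THC and 21.2 and 25.8 in BC, which overlapped (-0.10 ± 0.47, adjusted p = 0.92, edgeR), and 27.2 and 13.6 CPM in TLC against 7.05 and 10.8 in LC (1.17 ± 0.47, adjusted p = 0.17).

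The members differed by where their annotated 3′ end lies. In GENCODE M21, 35 models ended within 100 bases of the stop codon, most of them at the stem-loop or at the coding part itself, and 30 ran on for 100 bases or more. The limit of 100 bases was chosen after the values were seen, and the split is described without a test. Short-ended genes summed to 1448 and 956 CPM in THC, 294 and 1004 in TBC, 1572 and 804 in TLC, 146 and 266 in LC, and 174 and 260 in BC. Long-ended genes summed to 1509 and 1070 CPM in THC, 544 and 1075 in TBC, 1583 and 918 in TLC, 502 and 610 in LC, and 467 and 663 in BC. The ratio of means was thus 5.53 for THC to BC and 5.77 for TLC to LC among short-ended genes, and 2.28 and 2.25 among long-ended ones. Called higher in THC against BC were 19 of 32 tested short-ended and 7 of 29 tested long-ended genes, against 5% of all genes tested. In TLC against LC 12 and 2 were called higher, against 4.46% of all genes tested. Without the members that by counts passed through the Tomato libraries alone, these counts were 16 and 6 in THC against BC. In TLC against LC they were 11 and 2. Hist1h2an, Hist1h2bk and Hist1h2ag, which by CPM passed through the Tomato libraries too, are short-ended and still among the 16. Hist1h2an is also among the 11. The contrast between short-ended and long-ended genes is therefore not free of this selection. Hist1h1c, Hist1h1e, Hist3h2a, Hist4h4 and Hist2h2be all belong to the long-ended group, with 880 to 2515 bases past the stop codon. The group also holds genes called higher in THC against BC. Among them are Hist1h2ae with 199 bases (log2 fold change 3.97, adjusted p = 0.020, edgeR) and Hist1h2bc with 742 (1.74, adjusted p = 0.026). Reads from a longer annotated end count towards a gene, so the 2 groups also differ in what was counted.

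**Figure D4:**
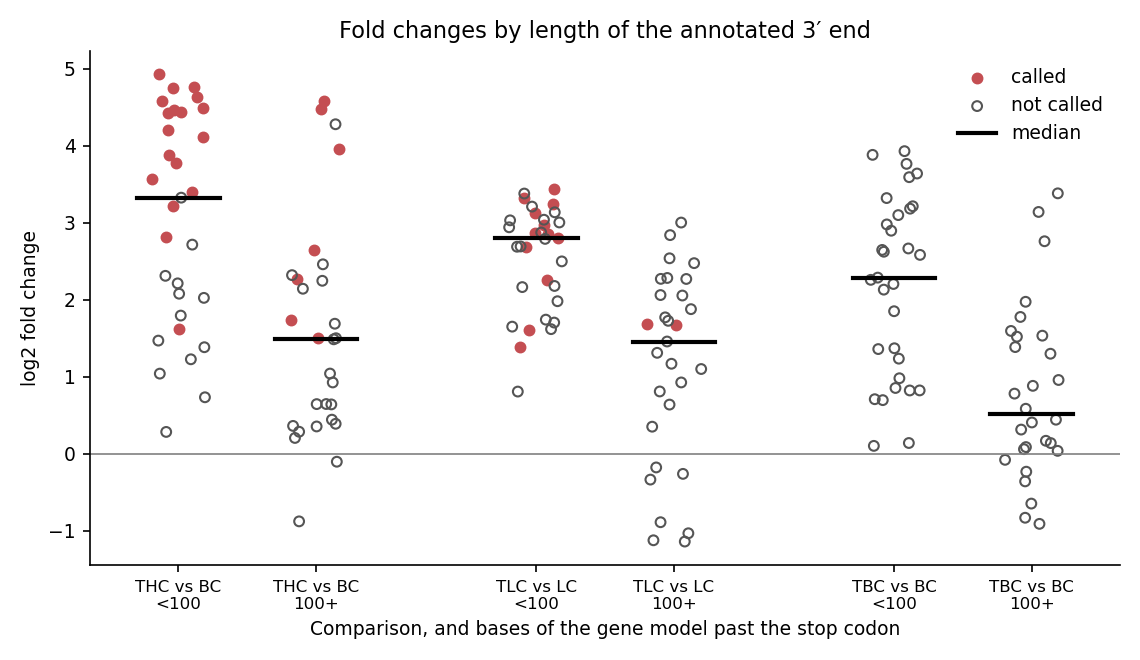
Log2 fold change of each member tested in THC against BC, TLC against LC and TBC against BC, split by whether the annotated model holds under 100 or at least 100 bases past the stop codon. Filled points passed an adjusted p of 0.05, bars are medians (3.33 and 1.5, 2.80 and 1.46, 2.29 and 0.52 from left to right), and the 2 members at 0 in BC are left out of the comparisons with BC.

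In basal cells after ablation no member was called (TBC against BC, 0 of 61, edgeR, where 0% of all genes were). At an unadjusted p under 0.05, 30 members were higher and none lower, against 4.57% of all genes higher. The counts and the median in this paragraph include the members that passed the filter through the Tomato libraries, TBC among them. Such members are selected to be higher in Tomato libraries, Hist1h3g being an example, and values without them are not given. DESeq2 called 14 members higher and none lower, where it called 0.835% of all genes higher. Without a filter on low counts edgeR also called 14 (0.819% of all genes), and without TBC replicate 1 it called 11 (0.696%). The median log2 fold change was 1.39 (1.37 with the 2 members at 0 in BC at their bounds), and both TBC libraries lay above both BC libraries for 33 of the 65 members and below for 3, against 20% of genes tested that lay above. The smallest adjusted p was that of Hist1h2ad (3.32 ± 0.65, adjusted p = 0.19, edgeR). TBC replicates 1 and 2 differed widely, as in Hist1h3c with 10.6 and 71.8 CPM and Hist1h1d with 20 and 83.3 CPM. Hist1h1c and Hist1h1e were closer, at 111 and 138 CPM and at 116 and 144 CPM. The change in TLC was not shown to differ from that in TBC for any member by the test of that difference, which called 0 members (edgeR, and 1 by DESeq2, Hist1h1e). At an unadjusted p under 0.05, 5 members had a larger change in TLC, against 5.48% of all genes.

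Among the populations taken after ablation, hybrid cells were set against luminal and basal ones. THC against TLC called 0 of 61 members at an adjusted p under 0.05 and 0 at an unadjusted p under 0.05 (edgeR, and 0 by DESeq2), where 1.52% of all genes were called higher, 0.0911% lower and 12.1% had an unadjusted p under 0.05, and the median log2 fold change was 0.04. Both THC libraries lay above both TLC libraries for 2 members and below for 1, against 21.7% of genes tested that lay above. Against TBC, THC had a median of 0.81 with 0 calls (edgeR, 9 members higher at an unadjusted p under 0.05, and 1 by DESeq2), where 2.57% of all genes were called higher, 1.14% lower and 10% were higher at an unadjusted p under 0.05. Both THC libraries lay above both TBC libraries for 28 members and below for none, against 26.2% of genes tested that lay above. With 2 libraries a population and TBC replicates this far apart, these figures do not show that the populations are alike.

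Between the 2 populations without a treatment label the sums overlapped, with 647 and 876 CPM in LC and 642 and 923 in BC. LC against BC called 3 members higher, Hist2h2be, Hist2h3c1 and Hist1h2bc, and 2 lower, Hist1h1e and Hist1h4a, where 11.5% and 12.5% of all genes tested were called. Hist2 genes summed to 61.7 and 69.0 CPM in LC and 98.6 and 91.3 in BC without overlap. Within that locus Hist2h2bb alone had 13.8 and 18.4 CPM in LC and 50.4 and 31.5 in BC (-1.33 ± 0.56, adjusted p = 0.13, edgeR).

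Histone genes outside the clusters include the replacement variants, many of which are transcribed outside S phase as well. H2afx, which also makes a stem-loop message, and Cenpa, which peaks late in the cell cycle, are in the list too. Its 11 listed genes summed to 1636 and 1190 CPM in THC, 1088 and 1133 in TBC, 1675 and 1250 in TLC, 1267 and 1427 in LC, and 1299 and 1192 in BC, so all populations overlapped except for TBC, which was lowest. Clustered histone RNA amounted to 1.81 and 1.70 times that of the variants in THC and to 1.88 and 1.38 times in TLC, against 0.511 and 0.614 in LC and 0.494 and 0.774 in BC. Over all genes tested, 5% were called higher in THC against BC and 4.46% in TLC against LC. In THC against BC 3 of the 11 were called higher and none lower, namely Cenpa of the centromeric nucleosome (1.75 ± 0.42, adjusted p = 0.028, edgeR), H2afx of DNA damage marking (1.55 ± 0.38, adjusted p = 0.035) and H2afy, macroH2A1 (0.86 ± 0.21, adjusted p = 0.028). In TLC against LC 4 were called higher and none lower, Cenpa (2.24 ± 0.42, adjusted p = 0.0083, edgeR), H2afx (1.87 ± 0.38, adjusted p = 0.014), H1fx and H2afy2. Each of these calls was lost without at least 1 library, that of Cenpa in TLC without TLC replicate 1 alone (0.052). H3f3a and H3f3b, which make H3.3, had adjusted p-values of 0.56 and 0.79 in TLC against LC and of 0.93 and 0.99 in THC against BC (edgeR).

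Chaperones carry new histones to DNA, and a separate set of factors makes and trims histone messages. Of 14 histone chaperones, 3 rose in both comparisons and none fell: Chaf1a and Chaf1b, subunits of chromatin assembly factor 1, and Asf1b. Chaf1b averaged 20.6 ± 3.13 CPM in THC and 3.62 ± 0.41 in BC (SD, n = 2 each; 2.48 ± 0.52, adjusted p = 0.018, edgeR), a call lost without any of these 4 libraries (0.061 to 0.13). Of 16 genes of histone transcription and 3′ processing, Eri1 and Cstf2 rose in THC against BC and Ccne1 in TLC against LC, and none fell. Over all genes tested, 5% were called higher in THC against BC and 4.46% in TLC against LC. So few calls do not set the list of 16 apart from all genes. Slbp itself had log2 fold changes of -0.74 ± 0.28 in THC against BC (adjusted p = 0.13, edgeR) and of 0.16 ± 0.28 in TLC against LC (adjusted p = 0.80).

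Genes of DNA replication and mitosis were set beside them. Over all genes tested, 5% were called higher and 2.72% lower in THC against BC, and 4.46% and 3.77% in TLC against LC. Of 26 replication genes, 11 rose and none fell in THC against BC, and 13 rose and 1, Gins2, fell in TLC against LC. Their sum was 1324 and 1339 CPM in THC, 573 and 1346 in TBC, 1824 and 1162 in TLC, 657 and 589 in LC, and 631 and 492 in BC. Of 20 mitosis genes, 20 rose in THC against BC and 17 rose and none fell in TLC against LC, and their sum was 1480 and 1664 CPM in THC, 216 and 949 in TBC, 1808 and 1363 in TLC, 145 and 249 in LC, and 62.5 and 75.8 in BC. TBC replicate 1 was the lower of the TBC libraries in these lists as in the histone genes. Clustered histone RNA stood at 2.23 and 1.51 times the replication sum in THC and 1.73 and 1.48 times in TLC, against 0.986 and 1.49 in LC and 1.02 and 1.88 in BC, which overlapped in both comparisons. In relation to mitosis genes it was lower, at 2.0 and 1.22 times in THC and 1.75 and 1.26 in TLC, against 4.46 and 3.51 in LC and 10.3 and 12.2 in BC.

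**Figure D5:**
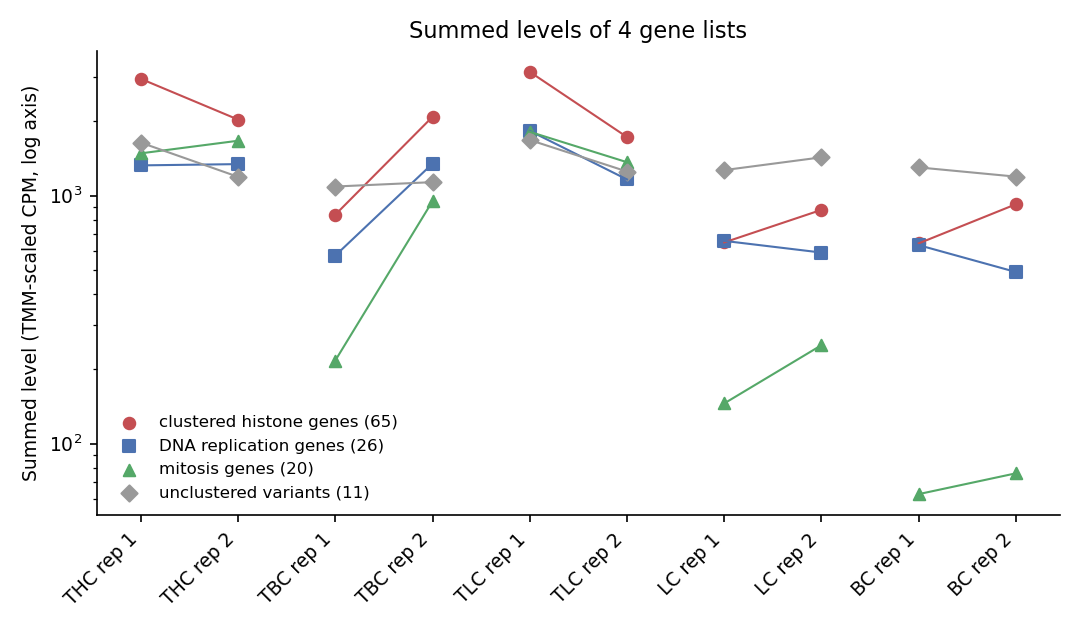
Summed levels of 4 gene lists in each library (TMM-scaled CPM, log axis), with lines joining the 2 libraries of a population. Mitosis genes span 62.5 to 1808 CPM, and the unclustered variants stay between 1088 and 1675 CPM.

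Levels of different members can be set side by side per kilobase of exon. By this measure Hist2h2bb was highest in THC (281 CPM per kilobase), TBC (173), TLC (273) and BC (107), and Hist1h1c in LC (101). Over the coding length alone the order changed: Hist1h4d was then highest in THC (415), TBC (272) and TLC (417), and Hist1h1c in LC (248) and BC (230). Second per kilobase of exon in THC and TLC was the H3 gene Hist1h3i (148 and 147 CPM per kilobase), against 20.8 in LC and 21.0 in BC. The median over the 65 members was 45.4 CPM per kilobase in THC, 22.8 in TBC, 42.7 in TLC, 11 in LC and 5.75 in BC. The number of members with a mean of at least 10 CPM was 49 in THC, 42 in TBC, 49 in TLC, 18 in LC and 20 in BC. The 10 members with the most counts made up 42.6% of the sum in THC and 42.8% in TLC, against 60.1% in LC and 66.0% in BC.

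Members of a class are close copies of each other, and this limits how far single genes can be told apart. Of the 50-base stretches of a member's transcripts, a median of 50.7% occurred in no other gene's transcripts apart from genes that overlap it, with 30 members under 50% and 13 over 90%. Linker histone genes were the most distinct (median 98.9%, lowest 91.5%), followed by H4 (60.5%), H2B (53.1%), H3 (42.8%) and H2A (27.0%). These shares depend on the length of the stretch: over 100-base stretches the median was 67.1%. A read that lies wholly within a shared stretch would have had no unique alignment. Over all reads of a library, not those of histone genes alone, the share without a unique alignment was highest in THC replicate 1. The exons of 24 members overlap another annotated gene, among them those of Hist1h2ad, Hist1h2ab, Hist1h2af, Hist1h2an, Hist2h3b and Hist2h2bb. Since the strand setting is not given in the sources used here, reads of overlapping genes cannot be told apart there.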

How the data were processed

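RNA of sorted mouse mammary gland cells was extracted with the RNeasy Micro kit, made into Ovation Solo libraries and sequenced on a NovaSeq instrument, per the labels' protocols. The authors deposited counts of reads per Ensembl gene. STAR, HTSeq and GRCm38 (mm10) are named in the submitters' processing notes. Versions, annotation release and strandedness of counting are not stated in those notes.

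HTSeq summary entries were set aside: 12.6% to 30.8% of reads had no feature, 2.71% to 3.48% were ambiguous and 14.6% to 43.0% had no unique alignment. Of the 49671 rows, 49412 matched GENCODE M21. Groups follow the cell type in the labels, and replicate numbers follow record order. Libraries were scaled by TMM, low genes were dropped with filterByExpr, and edgeR (quasi-likelihood, robust) was fitted to all 10 libraries, 1 coefficient per population, with Benjamini-Hochberg adjustment over 19757 genes, and a gene was called at an adjusted p under 0.05. Errors of log2 fold changes are standard errors of the fit. CPM values use the TMM factors, and depth and counting error set the precision of members under about 10 counts. Promoters came from RefSeq (GRCm38.p6) and transcripts from GENCODE M21. R 4.3.3, edgeR 4.0.16, limma 3.58.1, DESeq2 1.42.0 and Python 3.11.15 were used, and the fit was tested on simulated data. Alternatives were DESeq2, limma-voom, scaling by RLE or the upper quartile, other filters, a replicate block, a fit of the populations compared alone, and each library left out, in which the lone library of a population is assumed to vary like the others.

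Named per comparison were up to 6 called members with the smallest adjusted p and at least 10 CPM, beside the 10 most abundant members, the linker histone genes, Hist1h2bc, Hist2h2be, Hist4h4 and the testis genes. The members, the lists and this rule were chosen with earlier results of these data known. Other genes named, such as Hist1h3i, were chosen after their values were seen.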

Additional observations from a re-analysis of the deposited data

Results flagged for a closer look

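Among histone pseudogenes, which the members leave out, Hist3h2bb-ps (chromosome 11, 58954048 to 58954512) was above its highest LC or BC value of 0.170 CPM in every Tomato library. Its mean was 0.792 CPM in THC, 0.347 in TBC and 1.07 in TLC, from 2 and 12, 3 and 3, and 7 and 10 counts in replicates 1 and 2, against 1 and 2 counts in LC and 0 and 2 in BC. Hist1h2aj (chromosome 13, 21721457 to 21721808) had 0.387 and 0.270 CPM in THC (mean 0.329), from 1 and 4 counts, against at most 0.196 CPM in LC and BC, where 1 count was seen in each replicate 1 and none in each replicate 2. It had 0.175 and 0.546 CPM in TLC, from 1 and 6 counts, and 0 and 0.220 in TBC, from 0 and 3 counts, so it was not particular to THC. Neither pseudogene had enough counts to be tested, so these differences were not tested.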

How the results depend on the processing

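Precision is limited by 2 libraries a population, by counts near 0 in BC and LC, and by shared sequence. Most of the named values counted next were not called in the main fit, so lost calls fall on the minority that were. The share that stayed is therefore not a measure of how stable the calls are. Of 832 values of named members under other settings, 769 stayed on their side of the threshold, 13 lost and 50 gained a call, and 0 reversed; with 1 library left out, 945 of 1040 stayed, 75 lost and 20 gained a call, and 0 reversed. The count higher in THC against BC was 26. Under settings other than the block it ran from 19 by limma-voom (4.61% of all genes in the same fit) to 39 by DESeq2 (6.51%). The count higher in TLC against LC was 14, against 24 with upper-quartile factors (5.17% of all genes in the same fit), 41 by DESeq2 (6.18%), 26 by limma-voom (4.43%), 38 with no filter (3.99%), 28 with a filter of 5 CPM (6.8%) and 35 with the populations compared alone (4.31%). Members higher in TBC against BC were 14 by DESeq2 (0.835% of all genes) and 14 with no filter (0.819%), and in THC against TBC 1 (4.16%) and 4 (3.1%). In LC against BC, 4 were lower by DESeq2 (12.7% of all genes), 6 with no filter (8.28%) and 4 with the populations compared alone (11.3%). Higher there were 6 with no filter (7.14%) and 1 with the populations alone (9.67%). The interaction gave 1 member higher with upper-quartile factors, DESeq2, no filter, the 5 CPM filter or the block. The share of all genes higher in those fits was 0.688% to 1.58%. The median level over coding length was 82.9 CPM per kilobase in THC, 45.8 in TBC, 84.5 in TLC, 15.8 in LC and 9.92 in BC. With each library left out in turn, the counts higher ran from 1 to 32 in THC against BC, 1 to 30 in TLC against LC, 0 to 11 in TBC against BC, 0 to 1 in THC against TBC, 0 to 3 in LC against BC (1 to 4 lower) and 0 to 1 in the interaction. The causes of these shifts were not tested.

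Replicates 1 and 2 follow 2 sets of library numbers whose meaning the labels do not give, so same-numbered libraries were not taken as pairs. Over 10 pairs of populations their deviations correlated from -0.0124 to 0.421, with 8 over 0.1. A replicate block gave 17 members higher in THC against BC (8.36% of all genes in the same fit) and 12 in TLC against LC (6.5%). Without the block these were 26 (5%) and 14 (4.46%), so the member counts fell while the shares of all genes rose. Under it Hist1h1b lost its calls in THC against BC (adjusted p = 0.062, edgeR) and TLC against LC (0.094), as did Hist1h1a (0.051) and Hist2h2bb (0.065) in TLC against LC, and Hist1h1e gained the interaction (0.029).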

Other observations

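The processed pseudogene Hist1h2al (chromosome 13, 51202727 to 51203065), which lies outside the Hist1 locus, varied by library rather than by population. It had 4.26 and 23.1 CPM in THC replicates 1 and 2, 3.0 and 38.2 in TBC, 3.86 and 22.7 in TLC, 21.2 and 0 in LC, and 26.5 and 0 in BC. The libraries labelled WT, the second of LC and of BC, had 0 counts, where the first of LC and BC had 196 and 135. It was not called in THC against BC, TBC against BC or TLC against LC (adjusted p = 0.97, 0.95 and 0.95, edgeR's quasi-likelihood test). The cause was not tested.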
